A study of Mus musculus with 23 samples.

Results

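The collagen chain genes of the mouse were followed across cells sorted from the growing end of the incisor. They were taken as every gene of the deposited count table whose symbol is Col, a number, a and a number, with Col17a1 left out, which gave 43 of 54347 genes. By the structure of their protein they fall into 11 fibrillar chains, 9 chains of basement membranes, 9 FACIT chains and 14 others.

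Collagens are proteins of the extracellular matrix whose chains wind around each other into a helix. Fibrillar collagens build the load-bearing fibrils of bone, dentin and loose connective tissue, collagen IV forms the sheet of the basement membrane under epithelia and around vessels, and FACITs (fibril-associated collagens with interrupted triple helices) sit on the surface of fibrils. In a developing tooth the mesenchyme and its odontoblasts are the known source of collagen I, while the dental epithelium rests on a basement membrane to which both tissues contribute.

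RNA was sequenced in 23 libraries of cells from the labial cervical loop of the lower incisor, the epithelial fold that holds the stem cells of this continuously growing tooth. The mice were at postnatal day 2 and carried green fluorescent protein driven by the endogenous Sox2 promoter. After digestion with collagenase and neutral protease, cells were sorted by that reporter into Sox2-positive cells, which the labels name dental epithelial stem cells (DESC), and Sox2-negative cells, and Smart-seq2 libraries were made. Batch A had 6 Sox2-negative and 6 Sox2-positive libraries, and batch B, prepared on another day from other mice, had 4 Sox2-negative and 7 Sox2-positive libraries. All 4 groups share the reporter line, the age and the dissection, and by the labels the groups of a batch differ only in the sort. Whether libraries of one batch came from different mice is not stated, so the p-values below measure the spread between libraries, which may be technical. Comparing the populations asks what distinguishes Sox2-positive cells from their neighbours in the loop.

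Library totals ran from 2305778 to 9541443 estimated counts, so 3 counts, taken here as the smallest level that can be read, stood for 0.314 to 1.30 CPM, the unit that sets each count against the scaled total of its library. Floors of this kind cover counting error only. A marker is called detected in a group if any of its libraries held 1 count or more, which can be under that level of 3 counts. Sox2, whose promoter drives the sorted reporter, measured 2.55 to 12.9 CPM in batch A and 13.3 to 20.4 CPM in batch B Sox2-positive libraries, and at most 1.19 CPM in Sox2-negative libraries. All 11 epithelial markers on the list were detected in every group, and their summed level was 4740 to 5190 and 5150 to 8010 CPM in Sox2-positive libraries of batch A and batch B, against 196 to 304 and 439 to 499 CPM in Sox2-negative libraries. Of 10 mesenchymal markers 9 were detected in both Sox2-positive groups, with Twist1 at 0, and the sum was 361 to 452 CPM in batch A and 197 to 260 CPM in batch B, against 2810 to 3280 and 3120 to 3550 CPM in Sox2-negative libraries. Markers of glia and neural crest (8 of 8 detected) summed to 1170 to 1400 CPM in batch A Sox2-positive libraries and to 72.4 to 103 CPM in those of batch B. Skeletal muscle markers did the reverse, with 205 to 392 CPM (6 of 6 detected) in Sox2-positive libraries of batch B and at most 4.14 CPM in those of batch A, where Myod1 and Myh3 were at 0. Batch B libraries numbered 1 and 2 stood apart from the others in earlier results of these data. Calls of single collagen chains described below that are lost without them are given both ways. The ratios of partner chains and the genes that process or bind collagen were not checked in this way.

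Stretches of promoter are shown for the members on which the results turn and for which RefSeq (build GRCm38.p6) gives a window: Col1a2, whose interaction was not called, Col3a1, whose interaction was, and Col18a1 and Col7a1, which were higher in Sox2-positive cells. Windows reach from 250 bases before to 50 bases after a start, and the printed stretches leave out annotated untranslated sequence. Capitals mark 3 motifs on either strand. The GC box is GGGCGG and reads CCGCCC on the other strand. The CCAAT motif reads ATTGG on the other strand, and the TATA motif is TATAAA. RefSeq places each stretch before the start of its gene. In GENCODE M21, which gives the gene coordinates below, Col1a2 starts farther upstream and its stretch is intronic. The coordinates are chr6:4505370-4505492 (plus strand) for Col1a2, chr1:45311288-45311537 (plus strand) for Col3a1, chr10:77166549-77166780 (minus strand) for Col18a1 and chr9:108953336-108953585 (plus strand) for Col7a1.
Col1a2: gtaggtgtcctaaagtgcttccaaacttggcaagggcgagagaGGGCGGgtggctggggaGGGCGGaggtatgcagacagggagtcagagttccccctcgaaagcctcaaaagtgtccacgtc
Col3a1: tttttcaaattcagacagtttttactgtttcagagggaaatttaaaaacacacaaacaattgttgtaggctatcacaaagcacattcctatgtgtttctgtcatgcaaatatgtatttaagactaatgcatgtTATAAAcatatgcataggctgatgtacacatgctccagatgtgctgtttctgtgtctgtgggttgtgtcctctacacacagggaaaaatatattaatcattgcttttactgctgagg
Col18a1: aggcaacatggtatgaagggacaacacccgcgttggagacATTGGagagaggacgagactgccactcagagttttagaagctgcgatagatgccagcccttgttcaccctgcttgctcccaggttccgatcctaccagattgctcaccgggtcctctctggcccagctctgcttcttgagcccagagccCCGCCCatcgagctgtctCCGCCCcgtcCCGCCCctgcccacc
Col7a1: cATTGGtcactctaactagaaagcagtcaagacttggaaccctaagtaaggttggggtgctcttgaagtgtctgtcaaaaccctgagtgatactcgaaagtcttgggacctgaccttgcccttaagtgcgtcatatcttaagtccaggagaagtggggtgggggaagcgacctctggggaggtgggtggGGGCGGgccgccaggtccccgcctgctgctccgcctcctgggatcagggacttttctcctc

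Of the 43 members 34 had a promoter window, 37 windows in all. The members without one were Col1a1, Col2a1, Col5a2, Col4a3, Col9a3, Col12a1, Col14a1, Col22a1 and Col26a1. GGGCGG, read on both strands, was in 23 of the 37 windows and in 35.7% of all 32851 windows of that length in RefSeq. CCAAT, read on both strands, was in 12 of the 37 and in 37.4% of all windows. TATAAA, read on both strands, was in 4 of the 37, those of Col3a1, Col10a1, Col11a2 and Col13a1, and in 13.6% of all. These are matches of letters, not sites shown to be bound.

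Most collagen chains that could be tested were lower in Sox2-positive cells, and a few were higher. Collagen transcripts made up 1.54% ± 0.0678 (SD, n = 6) of all counts in Sox2-negative libraries of batch A and 0.339% ± 0.0359 (n = 6) in its Sox2-positive libraries. In batch B the shares were 1.47% ± 0.188 (n = 4) and 0.174% ± 0.0107 (n = 7). In bulk samples such as these, fewer cells of a type and less RNA per cell cannot be told apart. With batch as a covariate, 38 of the 43 members passed the filter on low counts, and of these 26 were lower and 6 were higher in Sox2-positive cells by edgeR's quasi-likelihood test at an adjusted p under 0.05. Over all genes tested, 32.5% were lower and 24.9% were higher. The median log2 fold change of the tested members was -2.86, against -0.12 over all genes.

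Batch A alone tested 35 members, of which 24 were lower and 6 higher, where 24.2% and 19.3% of all genes were. Batch B alone tested 37 members, of which 29 were lower and 5 higher, where 27.6% and 27.1% of all genes were. The median log2 fold change was -1.90 in batch A and -3.74 in batch B, against -0.04 and 0.01 over all genes, and both medians stayed there when members with at most 3 counts in every library of the lower group were set at their bound. The libraries of the populations did not overlap for 22 members lower and 4 higher in batch A (15.7% and 12.4% of all genes) and for 28 lower and 4 higher in batch B (20.7% and 17.4%).

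**Figure D1:**
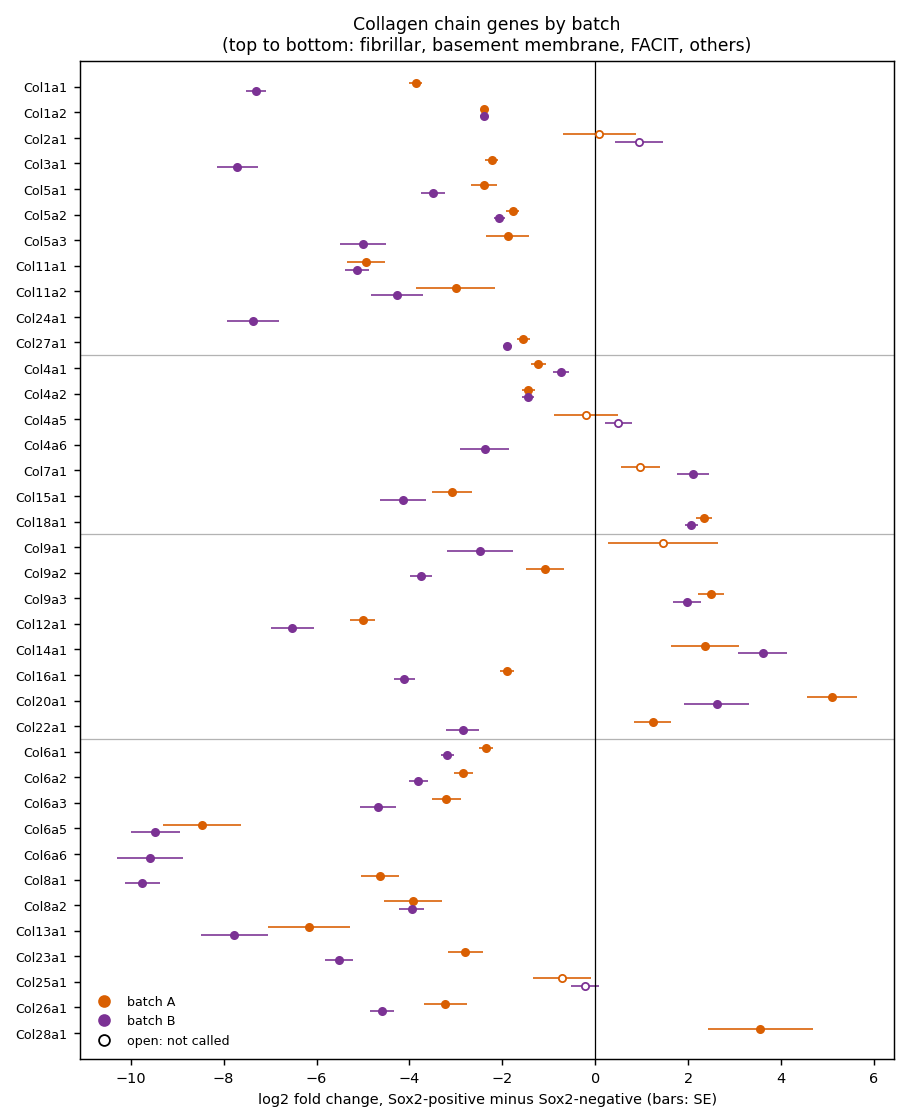
Log2 fold change of each tested collagen chain, Sox2-positive minus Sox2-negative, in batch A and batch B, with bars for the standard error. Most chains lie left of 0 and Col18a1, Col9a3, Col14a1 and Col20a1 lie right of 0 in both batches; for chains at or near 0 in every Sox2-positive library, such as Col6a5, the fitted position is no bound.

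The share of counts that each class took was compared between the populations. Fibrillar chains took 1.22% ± 0.0596 of counts in Sox2-negative and 0.180% ± 0.0213 in Sox2-positive libraries of batch A, and 1.12% ± 0.179 and 0.0873% ± 0.00550 in batch B. Basement membrane chains took 0.119% ± 0.0136 and 0.0970% ± 0.0180 in batch A, where batch B had 0.0554% ± 0.00761 and 0.0600% ± 0.00372. Summed over that class the populations overlapped in both batches, while for the fibrillar chains they were far apart. FACIT chains went from 0.0584% ± 0.00624 to 0.0420% ± 0.00660 in batch A and from 0.0715% ± 0.00925 to 0.0172% ± 0.00476 in batch B. The remaining chains went from 0.139% ± 0.00978 to 0.0198% ± 0.00232 in batch A and from 0.226% ± 0.0208 to 0.00962% ± 0.00113 in batch B. These shares are descriptions with no test and are not corrected for gene length.

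**Figure D2:**
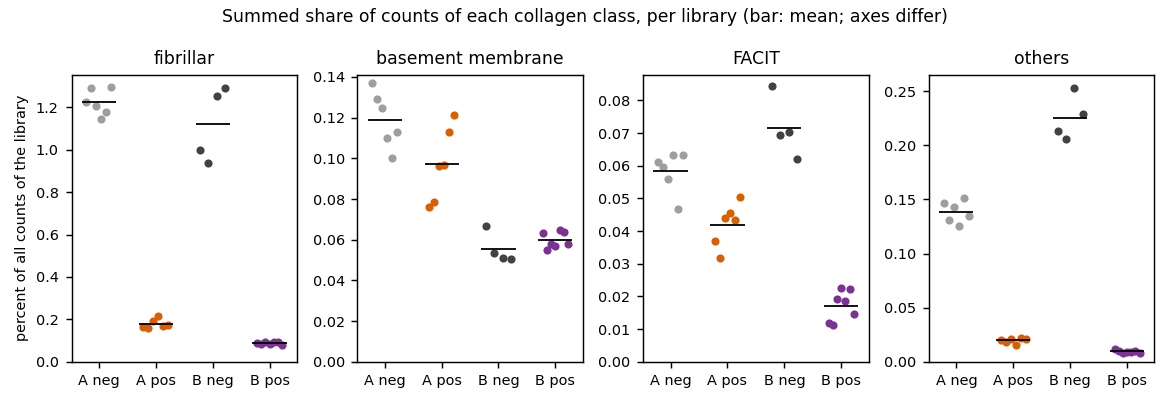
Percent of all counts of a library that fell on each class of collagen chains, 1 point per library, with a bar at the group mean and a separate axis for each class. Sox2-positive libraries lie far below Sox2-negative ones for the fibrillar class, while for basement membrane chains the points of the populations overlap in each batch.

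Per kilobase of transcript, the level in Sox2-negative cells was led by Col1a1 with 1032 CPM per kb, followed by Col1a2 with 558.5, Col3a1 with 318 and Col8a1 with 89.9. In Sox2-positive cells the order was Col1a2 with 104 CPM per kb, Col18a1 with 59.2, Col9a3 with 42.9, Col1a1 with 36.3, Col3a1 with 32.8 and Col4a1 with 30.6. These are means over the libraries of both batches, and the places of Col1a1 and Col3a1 among Sox2-positive cells rested on batch A, as the values below show. Among Sox2-negative cells the place of Col8a1 rested on batch B (188 CPM per kb). In batch A it was at 24.7 CPM per kb, below Col4a1 with 93.4, Col6a1 with 77.9, Col5a2 with 63.9 and Col4a2 with 62.4, among others. Whether the deposited values already hold an adjustment for gene length is not given in the sources used here. If they do, levels per kilobase and shares of counts would differ from those of unadjusted counts.

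Among fibrillar chains, 10 of 11 were lower in Sox2-positive cells and none was higher, where 32.5% and 24.9% of all genes were. The median log2 fold change of the class was -2.31 in batch A (10 tested) and -4.27 in batch B (11 tested). Collagen I is built of the chains encoded by Col1a1 and Col1a2, and collagen III, which joins it in soft tissue, of the Col3a1 chain alone. Both Col1a1 and Col3a1 fell further in batch B than in batch A, while the fold changes of Col1a2 were close to each other.

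Col1a1 (chromosome 11, 94936224 to 94953042, plus strand, GRCm38) measured 5904, 6051 and 7029 CPM (lowest, median and highest) in batch A Sox2-negative libraries and 289.9, 443 and 528 CPM in Sox2-positive libraries. In batch B it measured 5577, 5323, 6120 and 6827 CPM in the 4 Sox2-negative libraries and 21.6, 33.7 and 52.0 CPM in the Sox2-positive ones. The Sox2-negative libraries of both batches were alike, and every batch B Sox2-positive library lay below every batch A Sox2-positive library. Its log2 fold change was -3.87 (SE 0.14) in batch A and -7.31 (SE 0.21) in batch B, and their difference, the population by batch interaction, was -3.51 (SE 0.24, edgeR adjusted p 1.08e-10).

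Col1a2 (chromosome 6, 4504814 to 4541544, plus strand) measured 2620, 2934 and 3479 CPM in batch A Sox2-negative libraries and 511, 539.8 and 696 CPM in Sox2-positive libraries. Batch B gave 2903, 2985, 3006 and 3182 CPM in its Sox2-negative libraries and 487, 547 and 596 CPM in its Sox2-positive ones. The populations did not overlap in either batch, and the Sox2-positive libraries of the batches covered much the same range. By edgeR the log2 fold change was -2.39 (SE 0.08) in batch A and -2.40 (SE 0.08) in batch B, with an interaction of -0.08 (SE 0.11, edgeR adjusted p 0.791).

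Col3a1 (chromosome 1, 45311538 to 45349706, plus strand) measured 1372, 1836 and 2286 CPM in batch A Sox2-negative libraries and 286, 376 and 500.5 CPM in Sox2-positive libraries. The batch B values were 1140, 948, 2515 and 2190 CPM in Sox2-negative and 1.30, 7.03 and 14.6 CPM in Sox2-positive libraries. The batch B Sox2-positive libraries were thus low, in places near the floor, and overlapped no other group. The log2 fold change was -2.23 (SE 0.14) in batch A and -7.70 (SE 0.45) in batch B, with an interaction of -5.54 (SE 0.46, edgeR adjusted p 4.84e-09).

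Beside these chains, the mesenchymal markers moved in part the same way between the batches. Postn, which encodes periostin, averaged 180 CPM in Sox2-positive libraries of batch A and 15.9 CPM in those of batch B, while Vim averaged 175 and 132 CPM, Dcn 4.58 and 7.42 CPM and Lum 13.3 and 9.32 CPM. Of the other markers, Msx1 averaged 1.90 and 0.587 CPM, Prrx1 2.10 and 0.376 CPM and Pdgfrb 11.4 and 10.2 CPM. Pdgfra went the other way, with 29.3 and 42.3 CPM, Thy1 averaged 5.99 and 6.44 CPM, and Twist1 was at 0 in both. The glial and ameloblast lists were also lower in batch B Sox2-positive libraries: the ameloblast sum was 289 to 349 CPM in batch A (4 of 6 detected, Klk4 and Amtn at 0) and 6.82 to 10.1 CPM in batch B (4 of 6, Enam and Amtn at 0). Odontoblast markers summed to 21 to 39.2 CPM in batch A Sox2-positive libraries (5 of 6 detected, Dmp1 at 0) and 5.82 to 15.8 CPM in batch B (6 of 6). In both batches Bglap reached at most 1 count and Phex at most 2 in a Sox2-positive library, and Dmp1 reached at most 1 in batch B. Pericyte and smooth muscle markers (7 of 7 detected in each group) went the other way in sum. They summed to 129 to 186 CPM in batch A and 490 to 530 CPM in batch B Sox2-positive libraries. Most of this was Acta2 (means of 30.9 and 205 CPM), Tagln (63.1 and 207.5 CPM) and Cspg4 (40.5 and 71.1 CPM). The rest were lower, with Rgs5 averaging 0.92 and 1.42 CPM, Kcnj8 5.17 and 7.40, Abcc9 11.3 and 21.6, and Myh11 0.31 and 0.23 CPM. In Sox2-negative libraries the list summed to 581 to 947 and 478 to 547 CPM. There Rgs5 averaged 432 and 81.2 CPM, and Tagln 41.6 and 54.6 CPM. Leukocyte markers summed to 2.21 to 13.8 CPM in batch A Sox2-positive libraries (6 of 8 detected, Cd52 and Laptm5 at 0) and 2.45 to 9.70 CPM in those of batch B (5 of 8, with Cd52, Tyrobp and Csf1r at 0), against 1310 to 1600 and 292 to 357 CPM in Sox2-negative libraries. The part of any of these in the collagen values was not tested.

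Unlike Col1a1 and Col1a2, Col3a1 was not chosen by the rule for named members given under processing. The other fibrillar chains are partner chains or were chosen after their values were seen. Col5a2, a chain of collagen V, which sets the diameter of collagen I fibrils, averaged 423 ± 58.6 and 123 ± 24.4 CPM in the Sox2-negative and Sox2-positive libraries of batch A, and 473 ± 80.3 and 108 ± 11.8 CPM in batch B. Col27a1 averaged 342 ± 69.7 and 116 ± 11.3 CPM in batch A, and 468 ± 52.0 and 120 ± 8.81 CPM in batch B. Both averaged lower in the Sox2-positive libraries of each batch, and neither interaction was called, at -0.35 (SE 0.19, edgeR adjusted p 0.312) and -0.41 (SE 0.17, edgeR adjusted p 0.159). Col5a3 followed the other pattern, with 10.4 ± 2.60 CPM in Sox2-positive libraries of batch A and 0.574 ± 0.383 CPM in those of batch B and an interaction of -3.17 (SE 0.69, edgeR adjusted p 0.00419). Its batch B Sox2-positive libraries held 0 to 6 counts, some under the floor of 3. That size therefore rests in part on values that cannot be read.

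Col11a1, a chain of the thin fibrils of cartilage that connective tissue also makes, averaged 198 ± 24.5 and 6.51 ± 4.42 CPM in batch A and 308 ± 44.8 and 8.06 ± 4.02 CPM in batch B. Col24a1 was at 0 counts in all 6 batch A Sox2-positive libraries, at least 15.8-fold lower than in the Sox2-negative ones. The filter left it out of the test in batch A. The batch B Sox2-negative libraries averaged 52.3 ± 14.7 CPM, and Col24a1 was at most 0.989 CPM in the Sox2-positive ones, of which 5 were at 0. It was called lower in batch B (edgeR adjusted p 1.95e-08), and no size is given because the fitted value moved from -7.37 to -11.21 without the libraries numbered 1 and 2. Col2a1, the main chain of cartilage fibrils, was the 1 fibrillar chain that did not pass the test, with 7.28 ± 2.48 and 7.71 ± 6.01 CPM in batch A and 7.60 ± 7.15 and 14.0 ± 4.54 CPM in batch B.

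**Figure D3:**
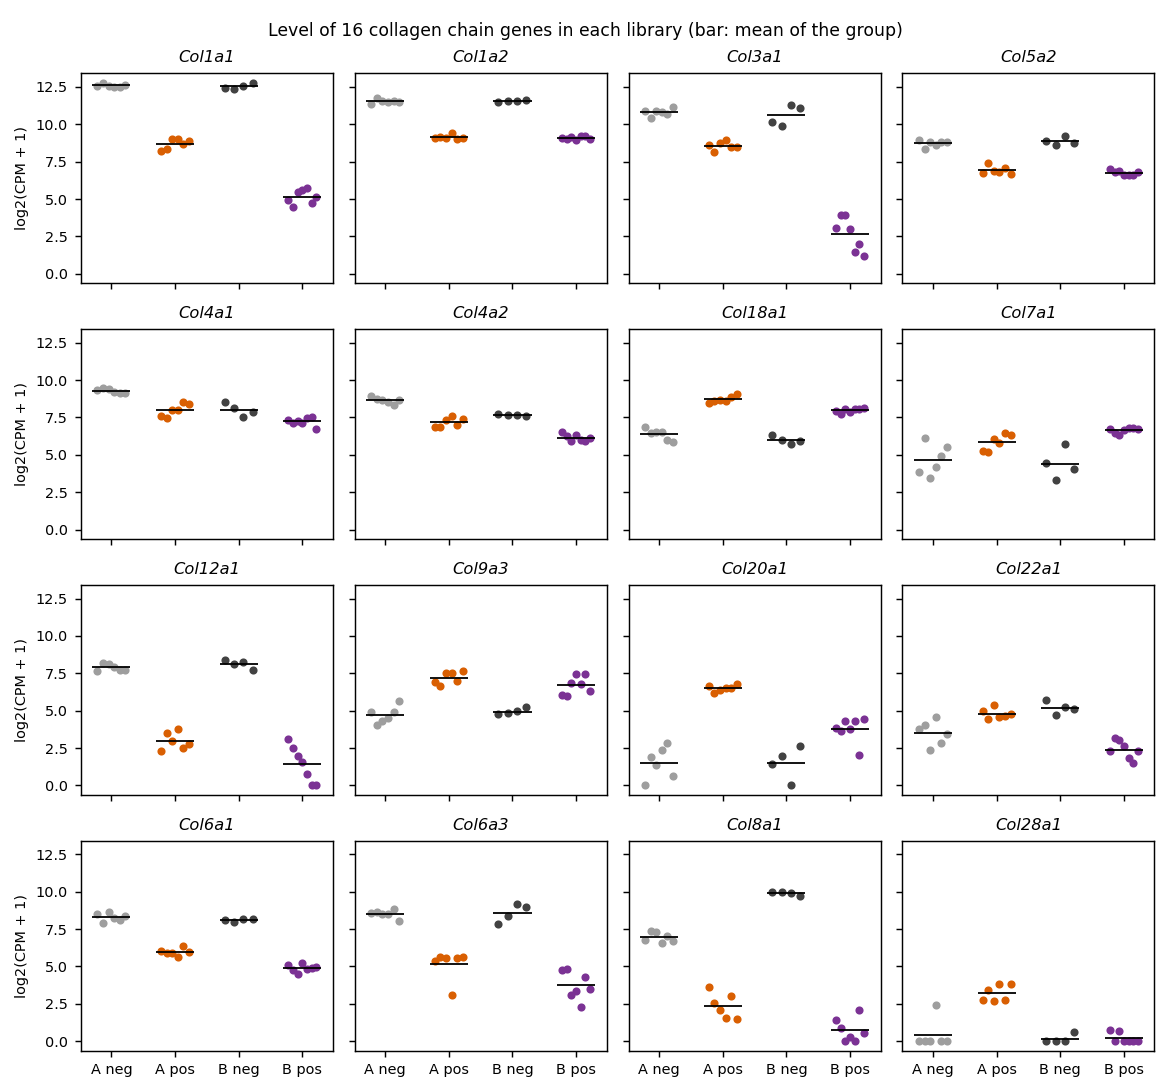
Level of 16 collagen chains, as log2 of CPM plus 1, in each of the 23 libraries, with 1 panel per gene and 1 point per library. Col3a1 and Col5a2 are shown though the rule did not name them, and Col14a1 and Col16a1, which it named, are not shown. Col1a2 sits at the same height in Sox2-positive libraries of both batches, from 487 to 696 CPM, while Col1a1 falls from at least 289.9 CPM in batch A to at most 52.0 CPM in batch B.

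Chains that pair in 1 molecule were set against each other per kilobase in each library. The Col1a1 to Col1a2 ratio averaged 1.90 ± 0.125 (SD, n = 6) in batch A and 1.78 ± 0.140 (n = 4) in batch B Sox2-negative libraries. It averaged 0.680 ± 0.153 (n = 6) in batch A Sox2-positive libraries and 0.0600 ± 0.0198 (n = 7) in those of batch B. No library of a Sox2-positive group overlapped a Sox2-negative one or the other Sox2-positive group. Between the batches the log2 ratio differed by -3.54 in Sox2-positive cells (two-sided exact permutation p 0.00117, adjusted p 0.0173 over 24 comparisons of 6 pairs) and by -0.10 in Sox2-negative cells (exact permutation p 0.21, adjusted p 0.301). Between populations it differed by -1.51 in batch A (exact permutation p 0.00216, adjusted p 0.0173) and by -4.96 in batch B (exact permutation p 0.00606, adjusted p 0.0242).

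The chains of collagen IX also moved apart. The Col9a2 to Col9a3 ratio averaged 1.62 and 0.121 in the Sox2-negative and Sox2-positive libraries of batch A, and 3.27 and 0.0681 in batch B. Its log2 value differed between populations by -3.88 in batch A (exact permutation p 0.00216, adjusted p 0.0173) and by -5.58 in batch B (exact permutation p 0.00606, adjusted p 0.0242). For Col5a1 to Col5a2 the difference was -1.55 in batch B (exact permutation p 0.00606, adjusted p 0.0242) and -0.68 in batch A (exact permutation p 0.169, adjusted p 0.274). The Col6a1 to Col6a3 ratio was higher in Sox2-positive cells, by 1.07 on the log2 scale in batch A (exact permutation p 0.00866, adjusted p 0.029) and by 1.73 in batch B (exact permutation p 0.0121, adjusted p 0.029). For Col6a1 to Col6a2 the difference was 0.63 in batch B (exact permutation p 0.0121, adjusted p 0.029) and 0.55 in batch A (exact permutation p 0.104, adjusted p 0.208). The exact permutation p values of 0.00216, 0.00606 and 0.00117 are the smallest that 6 against 6, 7 against 4 and 7 against 6 libraries allow.

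**Figure D4:**
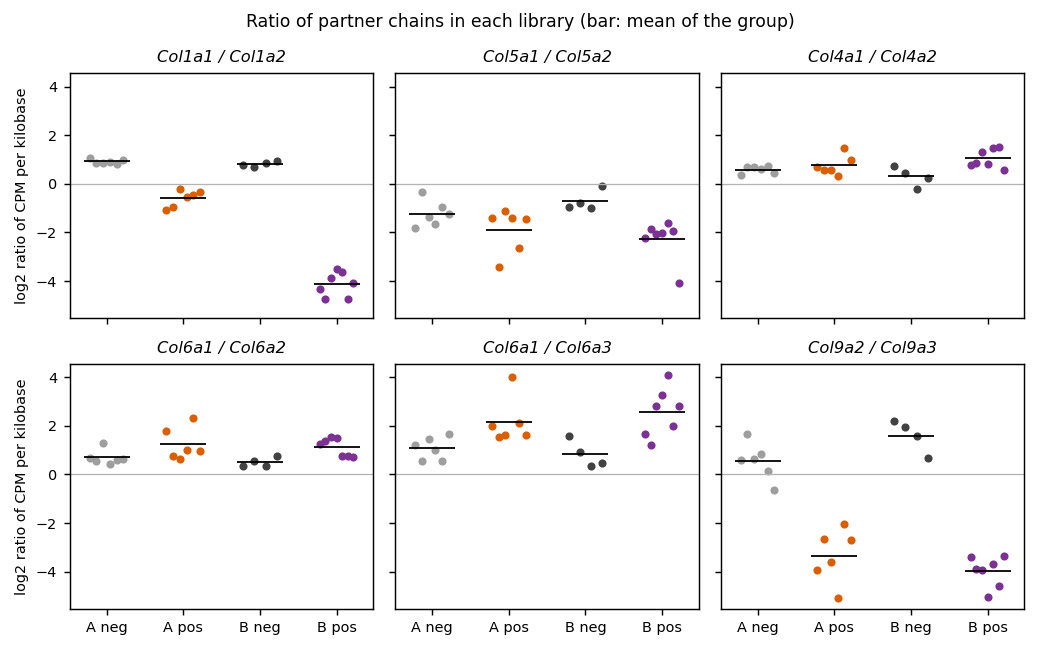
Ratio of the levels per kilobase of 2 chains of the same collagen in each library, on a log axis, for 6 pairs and the 4 groups. The Col1a1 to Col1a2 ratio runs from 1.61 to 2.11 in Sox2-negative libraries, from 0.480 to 0.866 in batch A Sox2-positive libraries and from 0.0370 to 0.0876 in those of batch B.

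The basement membrane class held chains called in either direction. Of its 9 members 7 were tested with both batches together. In Sox2-positive cells 3 were lower and 2 were higher, where 32.5% and 24.9% of all genes were, so that the counts were near the background. No member of the class passed the test of the interaction. That test called 4.22% of all genes lower and 2.82% higher, so 0 of 7 was also near the background. Col4a1 and Col4a2, which form the collagen IV found in most basement membranes, were lower, whereas Col18a1, the source of endostatin, and Col7a1, the anchoring fibril chain that fastens epithelia to the tissue below, were higher.

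Col18a1 (chromosome 10, 77052178 to 77166548, minus strand) measured 57.0, 88.1 and 117 CPM in batch A Sox2-negative libraries and 346, 403 and 536 CPM in Sox2-positive libraries. For batch B the corresponding levels were 78.9, 62.9, 51.4 and 59.3 CPM in reporter-negative and 216, 262 and 280.5 CPM in reporter-positive libraries. Every Sox2-positive library was above every Sox2-negative one, and those of batch A were above those of batch B. Its log2 fold change was 2.34 (adjusted p 1.97e-08 by edgeR, SE 0.17) in batch A and 2.06 (SE 0.14, edgeR adjusted p 2.92e-09) in batch B.

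Col7a1 (chromosome 9, 108953586 to 108984875, plus strand) measured 10, 23.6 and 70.5 CPM in batch A Sox2-negative libraries and 36.0, 60.6 and 86.8 CPM in Sox2-positive libraries. In batch B it measured 20.4, 9, 52.5 and 15.5 CPM in Sox2-negative libraries and 77.6, 104 and 112 CPM in Sox2-positive ones. The groups overlapped in batch A and not in batch B. By edgeR the log2 fold change was 0.97 (adjusted p 0.0742 by edgeR, SE 0.42) in batch A and 2.10 (SE 0.35, edgeR adjusted p 9.68e-05) in batch B, and the interaction did not pass (1.07, SE 0.57, edgeR adjusted p 0.314).

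Col4a1 and Col4a2 lie start to start on chromosome 8 (11198423 to 11312826 on the minus strand and 11312805 to 11449287 on the plus strand), and their annotated starts overlap by 22 bases, shown here on the plus strand with GGGCGG in capitals (chr8:11312805-11312826).
Col4a2 and Col4a1: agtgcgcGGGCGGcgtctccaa
Col4a1 measured 551, 608 and 699 CPM in batch A Sox2-negative libraries and 176, 251 and 363 CPM in Sox2-positive libraries. Batch B gave 364, 281, 183 and 236 CPM in its Sox2-negative libraries and 107, 153 and 180.4 CPM in its Sox2-positive ones. The groups of a batch were close in batch B but did not overlap. The log2 fold change was -1.23 (SE 0.16) in batch A and -0.74 (SE 0.17, edgeR adjusted p 0.00133) in batch B, where the call was lost without the libraries numbered 1 and 2 (edgeR adjusted p 0.0812).

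Col4a2 measured 326, 407 and 485 CPM in batch A Sox2-negative libraries and 114, 145 and 194 CPM in Sox2-positive libraries. The batch B values were 213, 203, 204 and 195 CPM in Sox2-negative and 59.7, 70.0 and 90.1 CPM in Sox2-positive libraries. Both collagen IV chains were therefore higher in batch A than in batch B in each population. Col4a2 had a log2 fold change of -1.44 in each batch (SE 0.14 in batch A and 0.13 in batch B). The Col4a1 to Col4a2 ratio per kilobase averaged 1.51, 1.77, 1.27 and 2.13 in batch A Sox2-negative, batch A Sox2-positive, batch B Sox2-negative and batch B Sox2-positive libraries. Between populations its log2 value differed by 0.74 in batch B (exact permutation p 0.0121, adjusted p 0.029) and by 0.19 in batch A (exact permutation p 0.355, adjusted p 0.426).

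Endothelial cells make much collagen IV, and their 8 markers, all detected, summed to 743 to 995 CPM in Sox2-negative libraries of batch A and 184 to 258 CPM in those of batch B. In Sox2-positive libraries the sums were 0.712 to 6.20 and 3.89 to 10.2 CPM. There Cdh5 and Emcn each reached at most 1 count in batch A, and at most 2 and 3 counts in batch B. The part of endothelial cells in the Col4a1 and Col4a2 values was not tested. Col15a1, a proteoglycan collagen near Col18a1 in structure, averaged 45.2 ± 11.5 and 5.28 ± 3.38 CPM in batch A and 36.1 ± 13.8 and 1.78 ± 1.43 CPM in batch B, with a log2 fold change of -3.60 over both batches (SE 0.37, edgeR adjusted p 4.18e-09). Col4a5, which lies start to start with Col4a6 on the X chromosome, averaged 11.1 ± 7.97 and 9.65 ± 5.03 CPM in batch A and 15.8 ± 5.80 and 21.2 ± 6.43 CPM in batch B and did not pass the test (log2 fold change 0.09, SE 0.40, edgeR adjusted p 0.862). Col4a6 was tested in batch B alone among the single batches, where it averaged 9.03 ± 4.95 and 1.61 ± 1.01 CPM (log2 fold change -2.38, SE 0.53, edgeR adjusted p 0.00128).

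FACIT chains also included some called in either direction. With both batches together 8 of 9 were tested, of which 3 were higher (Col9a3, Col14a1 and Col20a1) and 3 were lower (Col9a2, Col12a1 and Col16a1), where 24.9% and 32.5% of all genes were, again near the background. Their median log2 fold change was 1.35 in batch A and -2.67 in batch B.

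Col9a3, a chain of the cartilage FACIT collagen IX, measured 15.8, 25.2 and 48.1 CPM in batch A Sox2-negative libraries and 101, 154 and 200.3 CPM in Sox2-positive libraries. For batch B the corresponding levels were 26.0, 27.4, 30.0 and 36.5 CPM in reporter-negative and 61.0, 111 and 178 CPM in reporter-positive libraries. The Sox2-positive libraries were above the Sox2-negative ones in both batches with no overlap. Its log2 fold change was 2.49 (adjusted p 2.22e-06 by edgeR, SE 0.27) in batch A and 1.98 (SE 0.30, edgeR adjusted p 4.02e-05) in batch B. Exons of Col9a3 overlap Tcfl5 on the other strand, which averaged 0.734 to 1.18 CPM over the groups.

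Its partner Col9a2 averaged 36.0 ± 8.07 and 16.8 ± 10.4 CPM in the Sox2-negative and Sox2-positive libraries of batch A, and 89.9 ± 26.1 and 6.45 ± 1.5 CPM in batch B, with an interaction of -2.72 (SE 0.48, edgeR adjusted p 0.000509). Within batch A its difference between populations was -1.08 (SE 0.40, edgeR adjusted p 0.0392), a call lost without any 1 of Sox2-negative replicates 1, 2 and 4 and Sox2-positive replicates 1 to 4 (edgeR adjusted p 0.0568 to 0.0826). The third chain, Col9a1, averaged 1.68 ± 2.04 and 4.58 ± 5.88 CPM in batch A and 12.8 ± 4.60 and 2.35 ± 3.07 CPM in batch B. Of 6 chondrocyte markers 4 were detected in each Sox2-positive group, with Matn1 and Matn3 at 0 in batch A and Matn1 and Cnmd at 0 in batch B. They summed to 183 to 257 CPM in batch A and 274 to 384 CPM in batch B Sox2-positive libraries, of which Sox9, also expressed by epithelial and glial cells, averaged 222 and 327 CPM, while Acan averaged 0.0336 and 0.165 CPM. In Sox2-negative libraries the sum was 62.8 to 102 and 128 to 173 CPM.

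Col20a1 (chromosome 2, 180986535 to 181018363, plus strand) measured 0, 2.18 and 6.30 CPM in batch A Sox2-negative libraries and 70.1, 90.1 and 111 CPM in Sox2-positive libraries. In batch B it measured 1.66, 2.85, 0 and 5.10 CPM in Sox2-negative libraries and 3.09, 13.1 and 20.7 CPM in Sox2-positive ones. The groups were far apart in batch A and overlapped in batch B, where 1 Sox2-positive library had a level within the Sox2-negative range. By edgeR the log2 fold change was 5.10 (adjusted p 1.65e-06 by edgeR, SE 0.54) in batch A and 2.61 (SE 0.69, edgeR adjusted p 0.00464) in batch B, and the batch B call was lost without the libraries numbered 1 and 2 (edgeR adjusted p 0.0779). The interaction did not pass (-2.56, SE 0.84, edgeR adjusted p 0.0648). Its exons overlap BX649560.1 on the same strand, which averaged 1.93 to 7.11 CPM over the groups, so that reads could be split between them.

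Col14a1, whose product regulates the width of fibrils, measured 0, 2.86 and 16.1 CPM in batch A Sox2-negative libraries and 14.3, 25.0 and 40.5 CPM in Sox2-positive libraries. Batch B gave 0.713, 0.750, 1.30 and 0.680 CPM in its Sox2-negative libraries and 4.36, 8.76 and 21.1 CPM in its Sox2-positive ones. The groups overlapped in batch A only. The log2 fold change was 2.36 (adjusted p 0.0163 by edgeR, SE 0.74) in batch A and 3.60 (SE 0.54, edgeR adjusted p 3.33e-05) in batch B.

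Col22a1, known from tissue junctions such as that of muscle and tendon, was the 1 member with a called interaction and opposite directions in the batches. It measured 4.22, 11.2 and 23 CPM in batch A Sox2-negative libraries and 21, 25.7 and 40.6 CPM in Sox2-positive libraries. The batch B values were 50.9, 25.4, 36.7 and 33.5 CPM in Sox2-negative and 1.81, 3.89 and 7.91 CPM in Sox2-positive libraries. It was thus higher in Sox2-positive cells in batch A, with a small overlap, and lower in batch B, with none. Its log2 fold change was 1.23 (adjusted p 0.0212 by edgeR, SE 0.40) in batch A, lost without Sox2-positive replicate 3 (edgeR adjusted p 0.0535), and -2.86 (SE 0.36, edgeR adjusted p 5.62e-06) in batch B. The interaction was -4.17 (SE 0.56, edgeR adjusted p 1.38e-05).

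Col12a1, a FACIT of tendon, ligament and bone surfaces, measured 199, 227 and 296 CPM in batch A Sox2-negative libraries and 3.99, 6.33 and 12.8 CPM in Sox2-positive libraries. For batch B the corresponding levels were 331, 283, 305 and 211 CPM in reporter-negative and 0, 1.94 and 7.41 CPM in reporter-positive libraries. The groups were far apart in both batches, with 0 to 44 counts in batch B Sox2-positive libraries, some of them under the floor. By edgeR the log2 fold change was -5.00 (adjusted p 6.95e-10 by edgeR, SE 0.27) in batch A and -6.52 (SE 0.47, edgeR adjusted p 8.93e-09) in batch B.

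Col16a1, a FACIT of skin and cartilage, measured 191, 262 and 316 CPM in batch A Sox2-negative libraries and 59.0, 69.3 and 87.1 CPM in Sox2-positive libraries. In batch B it measured 412, 353, 287 and 316 CPM in Sox2-negative libraries and 10.7, 20.7 and 26.2 CPM in Sox2-positive ones. Sox2-positive libraries of batch B were all below those of batch A. The log2 fold change was -1.90 (SE 0.15) in batch A and -4.11 (SE 0.23) in batch B, with an interaction of -2.28 (SE 0.28, edgeR adjusted p 4.37e-06).

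Of the other 14 chains, 12 were tested with both batches together. Of these 10 were lower and Col28a1 was higher, where 32.5% and 24.9% of all genes were. The median log2 fold change was -3.21 in batch A and -4.68 in batch B, or -3.95 in batch B with Col6a5, Col6a6 and Col13a1 at their bounds. Collagen VI, built of Col6a1, Col6a2 and a longer chain, forms beaded filaments around cells, and Col8a1 is a short-chain collagen known from vessels and the cornea.

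Col6a1 measured 242, 318 and 400.5 CPM in batch A Sox2-negative libraries and 48.9, 59.6 and 81.5 CPM in Sox2-positive libraries. Batch B gave 280.2, 257, 295 and 289 CPM in its Sox2-negative libraries and 21.8, 29.4 and 36.4 CPM in its Sox2-positive ones. The Sox2-negative groups were alike and the Sox2-positive groups did not overlap each other. Its log2 fold change was -2.35 (SE 0.15) in batch A and -3.19 (SE 0.14) in batch B, with an interaction of -0.90 (SE 0.20, edgeR adjusted p 0.00617).

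Col6a3 measured 265, 372 and 464 CPM in batch A Sox2-negative libraries and 7.59, 46.5 and 49.2 CPM in Sox2-positive libraries. The batch B values were 234, 335, 577 and 512 CPM in Sox2-negative and 3.95, 10.4 and 28.1 CPM in Sox2-positive libraries. The populations did not overlap. By edgeR the log2 fold change was -3.21 (adjusted p 6.15e-07 by edgeR, SE 0.31) in batch A and -4.68 (SE 0.38, edgeR adjusted p 4.33e-08) in batch B.

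The other long chains of collagen VI, whose genes Col6a4, Col6a5 and Col6a6 lie side by side on chromosome 9, were near or at 0 in Sox2-positive cells. Col6a5 averaged 9.55 ± 2.35 CPM in Sox2-negative libraries of batch A and 37.7 ± 12.3 CPM in those of batch B, and was at least 13.4-fold and at least 29.1-fold lower in Sox2-positive cells, taking the floor of 3 counts. Col6a6 averaged 17.6 ± 3.59 CPM in batch B Sox2-negative libraries and was at 0 in every Sox2-positive library, at least 13.6-fold lower in batch B. Col13a1, a transmembrane collagen, averaged 26.9 ± 10.3 CPM in Sox2-negative libraries of batch A and 18.2 ± 11.6 CPM in those of batch B, and was at least 14.1-fold lower in batch B Sox2-positive cells.

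Col8a1 measured 95.2, 118 and 164 CPM in batch A Sox2-negative libraries and 1.75, 4.11 and 11.5 CPM in Sox2-positive libraries. For batch B the corresponding levels were 999, 1021, 979 and 835 CPM in reporter-negative and 0, 0.432 and 3.27 CPM in reporter-positive libraries. The batch B Sox2-negative libraries were far above those of batch A, the reverse of the order in Sox2-positive cells. The log2 fold change was -4.63 (SE 0.41) in batch A and -9.75 (SE 0.39) in batch B, with an interaction of -5.17 (SE 0.60, edgeR adjusted p 2.06e-06). The batch B Sox2-positive libraries held 0 to 18 counts, some under the floor of 3. The sizes for Col8a1 in batch B and in the interaction therefore rest in part on values that cannot be read. Its partner Col8a2 averaged 94.9 ± 34.4 and 6.33 ± 5.68 CPM in batch A and 179 ± 39.1 and 10.7 ± 5.06 CPM in batch B, with an interaction of -0.10 (SE 0.68, edgeR adjusted p 0.975).

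Col28a1, known from Schwann cells of the peripheral nerve, measured 0, 0 and 4.45 CPM in batch A Sox2-negative libraries and 5.46, 7.72 and 13.3 CPM in Sox2-positive libraries. In batch B it was at 0, 0, 0 and 0.510 CPM in Sox2-negative libraries and at 0, 0 and 0.674 CPM in Sox2-positive ones, and did not pass the filter. Its groups did not overlap in batch A, and the level was at or near the floor in batch B. Its log2 fold change was 3.56 (adjusted p 0.0184 by edgeR, SE 1.13) in batch A. That size rested on Sox2-negative replicate 4, the 1 library of its group with any count. Without it the group was at 0 and the fitted value was 8.38 (edgeR adjusted p 6.25e-05), which is no bound. Over both batches it was 2.62 (SE 1.00, edgeR adjusted p 0.0272), a call lost without the batch B libraries numbered 1 and 2 (edgeR adjusted p 0.0649). The glial markers described above were likewise highest in batch A Sox2-positive libraries, with Sox10 averaging 198 CPM in Sox2-positive libraries of batch A and 8.38 CPM in those of batch B, and their part in the Col28a1 values was not tested.

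Col26a1, a chain of testis and ovary, averaged 147 ± 25.5 and 15.6 ± 8.06 CPM in batch A and 224 ± 38.5 and 8.70 ± 3.94 CPM in batch B, with a log2 fold change of -3.91 over both batches (SE 0.32, edgeR adjusted p 7.79e-11). Col23a1, a transmembrane collagen, averaged 49.3 ± 15.3 and 7.02 ± 3.21 CPM in batch A and 134 ± 14.0 and 2.70 ± 1.49 CPM in batch B. Its interaction was -2.79 (SE 0.49, edgeR adjusted p 0.000509). Col25a1, a transmembrane collagen of neurons and muscle precursors, averaged 15.2 ± 15.3 and 9.20 ± 4.88 CPM in batch A and 15.9 ± 5.32 and 13.1 ± 3.41 CPM in batch B and did not pass the test (edgeR adjusted p 0.222).

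By the test of the interaction, the difference between populations was unlike in the batches for 10 of the 38 tested members, all more negative in batch B, where 4.22% of all genes were called in that direction. None was called in the other direction, where 2.82% of all genes were. At an unadjusted p under 0.05, 3428 of 17190 genes passed, and limma-voom with quality weights and DESeq2 also called no member in the other direction. The 10 were Col1a1, Col3a1 and Col5a3 among fibrillar chains, Col9a2, Col16a1 and Col22a1 among FACITs, and Col6a1, Col6a2, Col8a1 and Col23a1 among the others. The median over the tested members was -1.15, against 0.02 over all genes. Col6a2 (-1.02, SE 0.29, edgeR adjusted p 0.0303) lost its call without any 1 of batch A Sox2-positive replicates 2, 3 and 6, batch B Sox2-negative replicates 1 and 3 and batch B Sox2-positive replicate 2 (edgeR adjusted p 0.0502 to 0.0672), and without the batch B libraries numbered 1 and 2 (0.165).

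In Sox2-positive cells, 18 of the 38 members were lower in batch B than in batch A, where 5.54% of all genes were, and none was higher, where 4.85% were. DESeq2 also called none higher, limma-voom with quality weights called 3, and 3746 of all genes had an unadjusted p under 0.05. Col3a1 differed by a log2 fold change of -5.64 (SE 0.35, edgeR adjusted p 4.34e-12). Col1a1 differed by -3.57 (SE 0.17), Col20a1 by -2.69 (SE 0.52, edgeR adjusted p 0.000681) and Col22a1 by -2.54 (SE 0.38). Col28a1 was among the 18 (edgeR adjusted p 0.00512), but its batch B libraries were at 0 to 0.674 CPM, so no size is given. Col18a1, higher in Sox2-positive cells of both batches, was also lower in batch B than in batch A (-0.76, SE 0.14, edgeR adjusted p 0.000442). Col12a1 and Col15a1 were called near the threshold (edgeR adjusted p 0.0439 and 0.0453), and each call was lost without any 1 of 12 libraries (edgeR adjusted p 0.0502 to 0.143). The call of Col9a2 was lost without the batch B libraries numbered 1 and 2 (edgeR adjusted p 0.0513).

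In Sox2-negative cells, 7 of the 38 members were higher in batch B, where 5.85% of all genes were, and 3 were lower, where 5.35% were. The 7 were Col27a1, Col9a2, Col22a1, Col6a5, Col6a6, Col8a1 and Col23a1, with Col8a1 at a log2 fold change of 2.92 (SE 0.35, edgeR adjusted p 2.20e-06), and the 3 were Col4a1, Col4a2 and Col14a1. Without the batch B libraries numbered 1 and 2, 2 members were higher, Col6a6 and Col8a1, and 2 lower, Col4a1 and Col4a2. The call of Col27a1 was also lost without batch A Sox2-negative replicate 1 or batch B Sox2-negative replicate 1 or 4 (edgeR adjusted p 0.0545 to 0.0703), and with total counts alone (0.119), and that of Col9a2 without batch B Sox2-negative replicate 1 (0.0598). Col14a1 lost its call without batch A Sox2-negative replicate 6 or batch B Sox2-negative replicate 1, 2 or 4 (edgeR adjusted p 0.0829 to 0.115). The split of calls over all genes between batches moved with the scaling: 1005 genes were higher and 919 lower in batch B Sox2-negative cells with TMM, and 661 and 1388 with total counts alone, which shifts the median log2 fold change from 0.00 to -0.15. In Sox2-positive cells the split was 833 and 952 with TMM and 666 and 1214 with total counts, and 18 members were lower either way. Batch B Sox2-negative libraries held 53600 to 62000 CPM of erythroid transcripts (7 of 7 markers) and those of batch A 985 to 1190 CPM (7 of 7), and the part of this in the scaling was not tested. These comparisons share libraries with the interaction, and day and mice cannot be told apart from batch.

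The genes that fold, modify, secrete, trim, crosslink and bind collagen were taken from a list of their own. Of 42 such genes, 41 were tested with both batches together, of which 27 were lower and 4 higher in Sox2-positive cells. Their median log2 fold change was -0.75, against -2.86 for the collagen chains. Over all genes 32.5% were lower and 24.9% higher, so the count of higher genes was under the background. In batch A 15 of 36 were lower and 5 higher, where 24.2% and 19.3% of all genes were, and in batch B 24 of 38 were lower and 5 higher, where 27.6% and 27.1% were. The 4 higher over both batches were P3h2, P3h4, Itgb1 and Ddr1.

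Among the prolyl hydroxylases, which stabilize the helix, P4ha3 had a log2 fold change of -5.17 over both batches (SE 0.61, edgeR adjusted p 5.59e-08). That size rests in part on values at or under the floor. P4ha3 averaged 35.0 CPM in Sox2-negative and 1.21 CPM in Sox2-positive libraries of batch A. In batch B Sox2-positive libraries it held 0 to 3 counts, at least 10.2-fold lower than in the Sox2-negative ones. P4ha1 averaged 62.0 ± 20.6 and 69.0 ± 12.9 CPM in batch A, where it did not pass, and 146 ± 23.3 and 74.8 ± 7.14 CPM in batch B, where it was lower (-0.89, SE 0.13, edgeR adjusted p 2.73e-05). P3h2, a prolyl hydroxylase known to act on collagen IV, was higher, with 1.37 ± 2.30 and 9.58 ± 2.90 CPM in batch A and 4.42 ± 1.53 and 11.4 ± 3.66 CPM in batch B (2.07 over both, SE 0.56, edgeR adjusted p 0.00263). Plod2, the lysyl hydroxylase of the fibril ends, was lower by 2.35 on the log2 scale (-2.35, SE 0.16, edgeR adjusted p 1.26e-12), while Plod3 did not pass (0.20, SE 0.15, edgeR adjusted p 0.274).

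Serpinh1, the collagen chaperone HSP47, averaged 228 ± 39.5 and 126 ± 33.4 CPM in batch A and 411 ± 77.0 and 89.9 ± 26.7 CPM in batch B, with an interaction of -1.34 (SE 0.29, edgeR adjusted p 0.00416). Lox, the lysyl oxidase that crosslinks fibrils, averaged 37.1 ± 5.32 CPM in batch A Sox2-negative libraries and was at 0 counts in all 6 Sox2-positive ones, at least 52.1-fold lower, whereas in batch B it averaged 63.4 ± 18.6 and 18.2 ± 4.10 CPM (log2 fold change -1.72, SE 0.22, edgeR adjusted p 8.42e-06). Loxl1, an oxidase linked to elastic fibres, averaged 62.9 ± 20.5 and 100.1 ± 26.3 CPM in batch A, where it was higher (0.67, SE 0.23, edgeR adjusted p 0.0275), and 148 ± 18.4 and 136 ± 32.8 CPM in batch B, where it did not pass (edgeR adjusted p 0.799). Loxl2, a crosslinker of collagen IV among others, was lower in both batches (-2.63 over both, SE 0.16, edgeR adjusted p 1.02e-13).

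The receptors of the list were the discoidin receptors, the collagen-binding integrin chains and Mrc2. Ddr1, the discoidin receptor of epithelia, averaged 27.5 ± 9.53 and 68.7 ± 16.4 CPM in batch A and 31.3 ± 1.42 and 120.3 ± 35.2 CPM in batch B, higher in Sox2-positive cells (log2 fold change 1.60 over both, SE 0.18, edgeR adjusted p 2.98e-08). Ddr2, its mesenchymal relative, averaged 375 ± 151 and 0.680 ± 1.03 CPM in batch A and 221 ± 130 and 0.601 ± 1.18 CPM in batch B (-8.66, SE 0.47, edgeR adjusted p 1.67e-14). Itgb1, the shared beta chain of collagen-binding integrins, was higher (0.46, SE 0.08, edgeR adjusted p 4.40e-05). Itga2, the alpha chain paired with it in epithelia, averaged 16.6 ± 6.62 and 13.2 ± 5.04 CPM in batch A, where it did not pass, and 10.1 ± 7.41 and 39.7 ± 10.8 CPM in batch B, where it was higher (2.05, SE 0.38, edgeR adjusted p 0.000249), with an interaction of 2.30 (SE 0.55, edgeR adjusted p 0.0086). Itga11, the alpha chain of fibroblasts, was lower in both batches (-2.02 over both, SE 0.38, edgeR adjusted p 5.49e-05). Itga1, an alpha chain that binds collagen IV, overlapped between the populations in both batches and was lower in batch B (-1.27, SE 0.39, edgeR adjusted p 0.0109) but did not pass in batch A (-0.13, SE 0.31, edgeR adjusted p 0.766). Itga10, an alpha chain of cartilage, was lower over both batches (-3.32, SE 0.62, edgeR adjusted p 5.19e-05). Mrc2, a receptor that takes up collagen into the cell, was lower over both batches as well (-3.89, SE 0.28, edgeR adjusted p 6.59e-12).

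**Figure D5:**
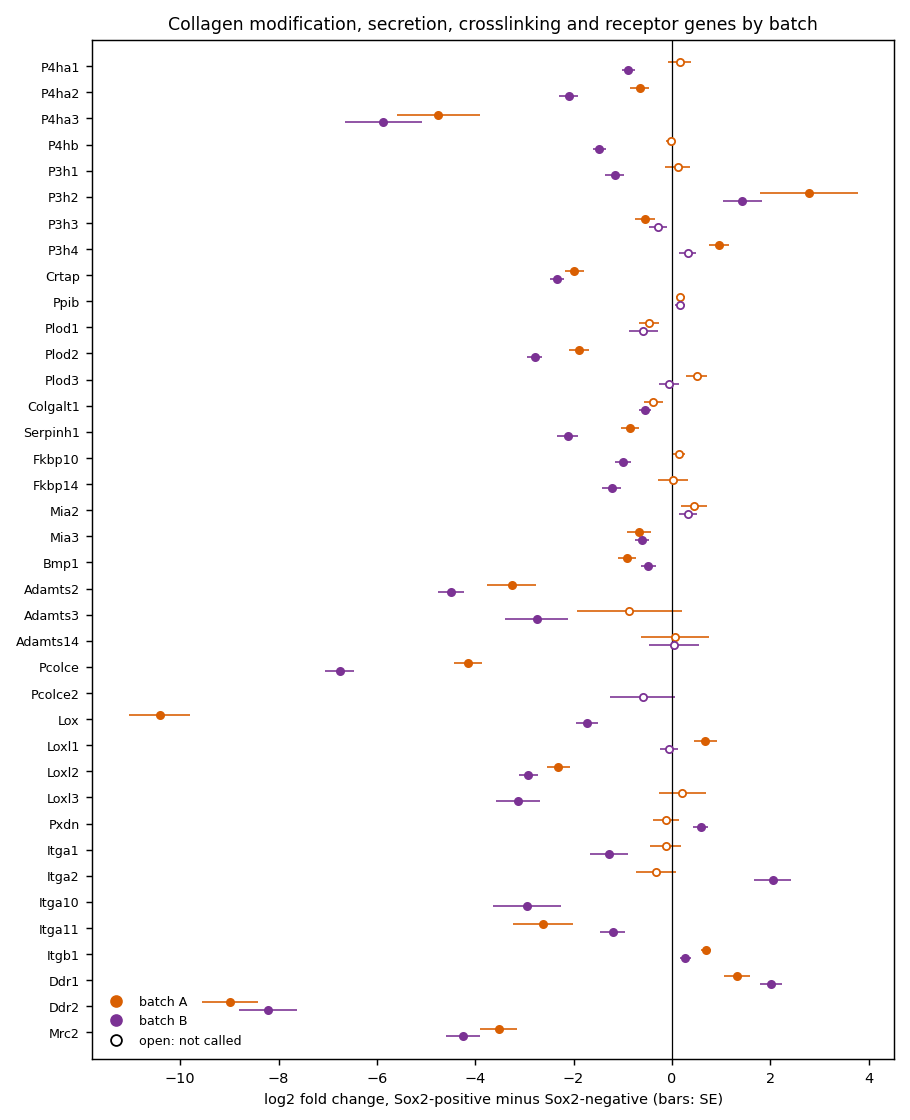
Log2 fold change, Sox2-positive minus Sox2-negative, of the genes that process, crosslink and bind collagen, in batch A and batch B, with bars for the standard error and open circles for genes that did not pass the test. Ddr1 and Itgb1 lie right of 0 in both batches and Ddr2 far to the left. The fitted batch A point of Lox, at 0 counts in Sox2-positive libraries, is no bound, and neither are those of Ddr2, near the floor there.

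The members left out by the filter in all fits were Col4a3, Col4a4, Col6a4, Col10a1 and Col19a1, which averaged at most 4.51 CPM in any group. Their highest single library was 17.4 CPM, for Col6a4 in batch A Sox2-negative cells. Col24a1, Col4a6 and Col6a6 were also left out in batch A and Col28a1 in batch B. Col5a1, Col11a2 and Col6a2, not described above by level, were lower in Sox2-positive cells of both batches, with log2 fold changes over both of -2.95 (SE 0.24), -3.63 (SE 0.56) and -3.32 (SE 0.18).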

How the data were processed

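The values are the authors' deposited gene-level estimated counts (expected counts): 54347 genes by 23 libraries, not scaled to a common depth. FastQC, Trimmomatic, Salmon and the build mm10 are named per the submitters' processing notes, without versions. Their settings, the annotation and any use of strand are not given in the sources used here. Only 0.000436% of the nonzero values were whole, so the deposited counts were rounded to whole numbers before testing. Per-sample columns left unused numbered 0. Symbols and coordinates came from GENCODE M21 (GRCm38), in which 54094 identifiers (99.5%) matched.

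Groups followed the labels. Counts were tested with edgeR 4.0.16 in R 4.3.3: TMM scaling, filterByExpr (minimum count 10), the quasi-likelihood F test and Benjamini-Hochberg adjustment over all genes tested, called at an adjusted p under 0.05. The population comparison had batch as a covariate and was repeated in each batch. A model of the 4 group means gave the interaction (batch B difference minus batch A difference) and the comparisons between batches. Standard errors were derived from the log2 fold change and its F. Levels in CPM used TMM-scaled totals, and those per kilobase used the longest coding transcript of a gene. Whether the deposited estimated counts carry an adjustment for gene length is not stated. Partner-chain ratios were compared by two-sided exact permutation tests of mean log2 ratios, adjusted over 24 comparisons (Python 3.11.15).

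The members, classes and gene lists were chosen with earlier results of these data known. The 16 members given library by library by rule were, in each class, the 2 highest in each population, every member called higher in Sox2-positive cells in any fit with at least 1 CPM, and every member with a called interaction and opposite signs. Col3a1, also given library by library, was outside that rule. On data simulated for 17190 genes, the comparison over both batches recovered 32% of changes of 1 and 76% of changes of 2 on the log2 scale, with 7 false calls among 16790 genes, and the interaction recovered 6% and 35%, with 2 false calls among 16990. The simulation changed only 100 genes at each size for each comparison. In the data 24.9% of genes were called higher and 32.5% lower over both batches. Adjusted p and scaling depend on that share, so these rates may not hold for the data. Alternatives were RLE and total-count scaling, other filters (none beyond 1 count, a mean of 10), DESeq2 1.42.0, limma-voom with quality weights (limma 3.58.1), a replicate block, leaving out each library, and leaving out the batch B libraries numbered 1 and 2.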

Additional observations from a re-analysis of the deposited data

Results flagged for a closer look

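In 6 of 64 groups of libraries checked for the named members, 1 library lay far from the rest. The rule used flags about 1 in 20 groups of normally distributed values. That rate does not hold where the other libraries are at 0, so it is no background for the 6. Col1a2 was 696 CPM in batch A Sox2-positive replicate 4, and Col6a3 was 7.59 CPM in the same library, the lowest of its group. Col14a1 was 1.30 CPM in batch B Sox2-negative replicate 3 and 21.1 CPM in batch B Sox2-positive replicate 6. Col28a1 was 4.45 CPM in batch A Sox2-negative replicate 4 and 0.510 CPM in batch B Sox2-negative replicate 4, with the other libraries of both groups at 0.

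For 10 members the difference between the populations itself differed between the batches by edgeR's test of the interaction (batch B difference minus batch A difference, log2). It was -3.51 for Col1a1, -5.54 for Col3a1, -3.17 for Col5a3, -2.72 for Col9a2 and -2.28 for Col16a1. It was -4.17 for Col22a1, -0.90 for Col6a1, -1.02 for Col6a2, -5.17 for Col8a1 and -2.79 for Col23a1. The sizes for Col5a3 and Col8a1 rest in part on batch B Sox2-positive libraries under the floor.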

How the results depend on the processing

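Of 134 called results for single members, 117 held under every alternative run, 17 lost the call under at least 1, and none reversed. Between batches in Sox2-negative cells, 7 members were called higher, against 12 with limma-voom and 2 without the batch B libraries numbered 1 and 2; in Sox2-positive cells none was, against 3 with limma-voom. The cause was not tested. With each library left out in turn, members called higher and lower numbered 6 to 6 and 26 to 27 over both batches, 5 to 7 and 23 to 25 in batch A, 5 to 6 and 29 to 29 in batch B, 0 to 0 and 9 to 12 for the interaction, 5 to 8 and 2 to 3 between batches in Sox2-negative cells, and 0 to 0 and 16 to 18 in Sox2-positive cells. Interactions called lower numbered 15 with no filter beyond 1 count. The deviations of same-numbered libraries from their group means correlated at -0.0226 to 0.0514. Such correlations between different sorted populations cannot decide whether same-numbered libraries share mice, and the labels do not state it. With a replicate block, the members called higher and lower were 6 and 26 for both batches together, 7 and 24 for batch A, 5 and 29 for batch B, and 0 and 8 for the interaction, where Col6a1 (adjusted p 0.0716, edgeR) and Col6a2 lost their calls. The batch A call of Col9a2 was lost in 9 settings. Over all genes, total-count scaling moved the median log2 fold change of the comparison over both batches from -0.12 to 0.00. At this depth, differences of members near 1 CPM, such as Col28a1 in batch B, were not detectable.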
